A study of Drosophila melanogaster with 30 samples.

Results

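Antisense RNAs are transcripts made from the DNA strand opposite to that of another gene, so that part or all of their sequence is complementary to the RNA of that gene. They are long non-coding RNAs, and some are known to act on the gene across from them, by altering its transcription, splicing or RNA stability, while most of those annotated in Drosophila have no known role. Whether an antisense RNA carries a polyA tail decides if polyA selection can capture it, and whether its reads can be told from those of the opposite gene depends on the use of strand in library preparation and counting.

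The genes described here are those of Drosophila melanogaster whose FlyBase symbol begins with asRNA: and whose equalized counts sum to at least 100 over all 30 libraries, where equalized means that the authors had matched the read length and depth of the library types before counting. This rule was met by 139 of 490 antisense RNA genes, among 17807 genes in the counts, and the members are called the measured antisense RNA genes below. The measured sum chose them and is a description only. Just inside the limit were asRNA:CR45152 with 101 and asRNA:CR45028 with 100 counts, and just outside were asRNA:CR31514 and asRNA:CR45943 with 98 counts each. Of the other antisense RNA genes, 306 had 1 to 99 counts and 45 had none.

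The flies were wild-type Canton S adult females reared at 25°C, and each sample was a pool of 6 whole animals. Pools were sealed in glass and ramped in a water bath to 4 or 10°C (cold shock) or to 34 or 37°C (heat shock), while controls stayed at 25°C, with 3 pools per temperature. The labels and the methods of the study differ on which temperatures were held for a few minutes before freezing. RNA of each pool was made into an rRNA-depleted (rRNA−) library and a polyA-selected (polyA+) library, which also differed in RNA input, sequencer and original read length, so these cannot be told apart from the effect of the protocol. In whole animals, fewer cells that make an RNA and less of that RNA per cell cannot be told apart.

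Equalized libraries held 2067003 to 5541348 counts in the rRNA− type and 2188773 to 5925256 counts in the polyA+ type. The animals looked female in their markers: the summed level of 7 ovary genes was 4166 to 15072 CPM (counts of a gene per 1000000 equalized counts of its library) in rRNA− and 794 to 24742 CPM in polyA+ libraries, while the sperm genes Mst84Da, Mst84Db and Mst98Ca were at 0 in all 30. The 7 testis-list genes found summed to 41.0 to 95.5 CPM in rRNA− and 3.15 to 81.8 CPM in polyA+ libraries. Among them bol had 25.1 to 59.2 CPM in rRNA− and 0.675 to 12.1 CPM in polyA+ libraries, and twe 9.93 to 36.3 and 0.849 to 76.8 CPM. Spread between libraries was larger in the polyA+ type, and edgeR's common biological coefficient of variation was 0.240 within rRNA− and 0.538 within polyA+ libraries. In 5 polyA+ libraries (10°C replicate 2, 34°C replicates 2 and 3, 37°C replicates 1 and 2) replication-dependent histone genes held 0.00173% to 0.00476% of the full counts, those deposited without equalizing, against 0.0144% to 0.0240% in the other 10. The numbers of measured genes called between library types and at 37°C in polyA+ libraries are given with and without these libraries. So are the polyA+ calls of asRNA:CR43481 and asRNA:CR45955 at 37°C. All other results that use polyA+ libraries include them. The equalized counts were not everywhere a subset of the full ones: over the polyA+ libraries 2 of the 139 genes had more equalized than full counts, asRNA:CR45367 with 800 against 416 and asRNA:CR46262 with 396 against 285, while 5 exceeded the full counts by 1 to 4 over the rRNA− libraries.

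All 139 measured antisense RNA genes had an annotated gene on the opposite strand, which was protein-coding for 138 and a pseudogene for 1. A single opposite gene was found for 111 of them and several for 28, in which case the one overlapping the most bases was taken as the partner. The median exon length was 1229 bases, with a range of 328 to 5936. At least 50% of the exon bases lay opposite exons of the partner in 106 of 139, and the median of this share was 74.7%. The genes lay on chromosome arms 2L (17), 2R (28), 3L (27) and 3R (38) and on chromosomes 4 (4) and X (25). For 15 of them some exon bases were shared with a gene of their own strand, and counts of these are uncertain.

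The first comparison was between library types, averaged over the 5 temperatures in an edgeR fit of all 30 libraries. Most measured antisense RNA genes were lower in rRNA− than in polyA+ libraries, by a median log2 fold change of -2.64. In this fit 124 of the 139 passed the filter on low counts, and 96 of them were lower and 8 higher in rRNA− libraries past both limits used for a call, an adjusted p below 0.05 and a change of 2-fold or more. Over all 10103 genes tested 43.7% were called, with 26.5% higher and 17.2% lower in rRNA− libraries, around a median log2 fold change of -0.03. With no filter all 139 could be tested, and 103 were lower and 8 higher, against 15.3% lower and 20.4% higher of 14561 genes. The opposite-strand partners gave another picture, with 25 higher and 34 lower of 130 tested and a median of -0.37. Other long non-coding RNA genes over the same limit of 100 counts, those with symbols that begin with lncRNA:, were mostly higher in rRNA− libraries, with 44 higher and 15 lower of 92 tested and a median of 1.01.

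**Figure D1:**
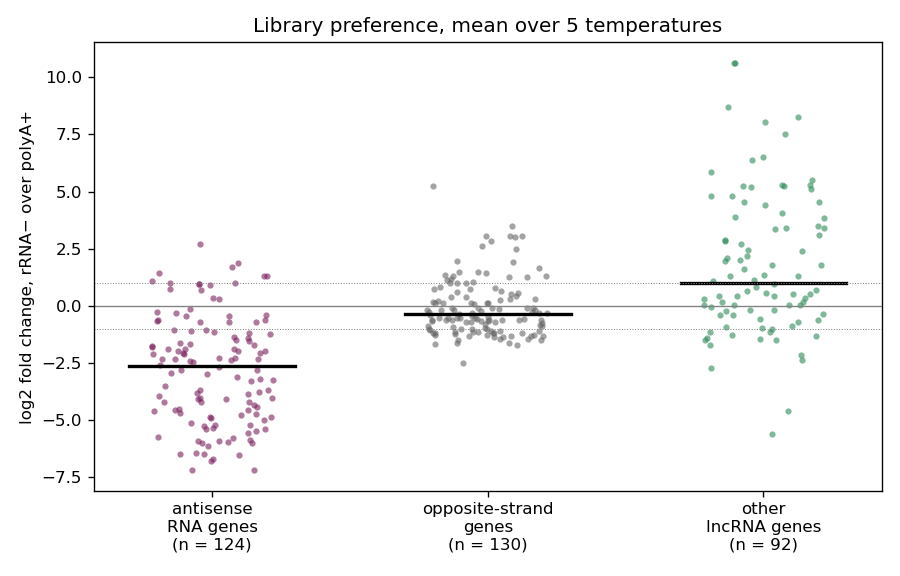
Log2 fold change of rRNA− over polyA+ libraries, averaged over 5 temperatures, for 124 measured antisense RNA genes, 130 opposite-strand genes and 92 other lncRNA genes. Each point is a gene, black bars are medians and dotted lines mark a fold change of 2. The antisense RNA genes lie mostly below 0, with a median of -2.64, against -0.37 for the opposite-strand genes and 1.01 for the other lncRNA genes.

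Since the members were chosen on a sum over both types, the number of counts behind this preference is given for each. The 139 genes together held 18253 counts in rRNA− and 81139 counts in polyA+ libraries. In rRNA− libraries 68 of them reached 50 counts, in polyA+ libraries 136 did, and 65 did in both. A sum of 100 was reached in rRNA− libraries alone by 37 and in polyA+ libraries alone by 105. Among the 351 antisense RNA genes below the limit, which the rule left out, 89 had more counts in rRNA− libraries, 196 had more in polyA+ libraries and 66 had equal counts, with 3052 counts in rRNA− and 6049 in polyA+ libraries in all.

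As a share of each library, the measured antisense RNA genes made up 0.0310% ± 0.0038 in rRNA− libraries and 0.140% ± 0.030 in polyA+ libraries (SD, n = 15 each), and the highest rRNA− library, at 0.0374%, was below the lowest polyA+ library, at 0.0940%. Of the full counts they made up 0.0148% ± 0.0050 in rRNA− and 0.133% ± 0.028 in polyA+ libraries. This wider gap came with larger rRNA− totals, 4241358 to 12002473 full counts. The rRNA− counts of the genes named below hardly differed, with 157 equalized and 157 full counts of asRNA:CR45601 in 4°C replicate 1. In an edgeR fit of the full counts the median log2 fold change of 139 tested genes was -2.42, against -2.64 of 124 in the equalized counts. The cause of the wider gap was not tested. A single gene, asRNA:CR45601, held 35.3% of all their counts. Without it the shares were 0.0256% ± 0.0030 in rRNA− and 0.0846% ± 0.013 in polyA+ libraries, and the types still did not overlap.

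The preference was present at each temperature. At 4, 10, 25, 34 and 37°C, 76, 82, 81, 79 and 87 of the 124 were lower in rRNA− libraries, and 6, 5, 6, 5 and 5 were higher. Over all genes, 31.7%, 30%, 37.4%, 31% and 52.3% were called at these temperatures, split into 11.9%, 13.4%, 14.7%, 13.3% and 23.4% lower and 19.7%, 16.6%, 22.7%, 17.7% and 28.9% higher. In the tests of whether the change from 25°C differed between library types, 0 of 124 were called at each of 4, 10, 34 and 37°C by edgeR and 0 by DESeq2. Of all genes, edgeR called 0%, 0%, 0.0099% and 0.0099%, and DESeq2 0.0786%, 0.0955%, 0.0449% and 0.73%. Unadjusted edgeR p-values under 0.05 were seen for 1, 4, 5 and 9 of the 124, and for 93, 216, 325 and 1543 of all 10103 genes.

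The most abundant of the group was asRNA:CR45601, which lies on chromosome X (dm6, 10054235 to 10055109, minus strand) wholly opposite the exon sequence of Yp1, the gene of yolk protein 1 that females make in the fat body and ovary for the egg. The level of asRNA:CR45601 had a lowest value of 29.2, a median of 49.5 and a highest of 72.0 CPM in rRNA− libraries, against 194, 638 and 1015 CPM in polyA+ libraries. Every polyA+ library was above every rRNA− library. The log2 fold change was -3.67 (SE 0.20, edgeR adjusted p = 1.85e-13). Yp1 itself went the other way, with a lowest, median and highest value of 11775, 17157 and 22239 CPM in rRNA− libraries and 2849, 6587 and 10460 CPM in polyA+ libraries, a log2 fold change of 1.01 (SE 0.13, edgeR adjusted p = 2.81e-07), and the types again did not overlap. Counts per kb of exon over asRNA:CR45601 were 0.324% to 1.12% of those over Yp1 in rRNA− libraries and 10.8% to 18.7% in polyA+ libraries.

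The next in abundance showed the same direction. asRNA:CR45926, opposite Nap1 (a histone chaperone), had a lowest, median and highest value of 0.354, 2.53 and 10.0 CPM in rRNA− and 37.0, 70.8 and 110 CPM in polyA+ libraries, a log2 fold change of -5.20 (SE 0.27, edgeR adjusted p = 1.15e-13). asRNA:CR45874, opposite RpS9 (a protein of the small ribosomal subunit), had 0.547, 1.38 and 3.07 CPM in rRNA− and 27.8, 68.1 and 123 CPM in polyA+ libraries, a log2 fold change of -6.01 (SE 0.30). asRNA:CR45778, opposite dUTPase (the enzyme that keeps uracil out of DNA), had 0, 0.550 and 1.57 CPM in rRNA− and 8.97, 33.0 and 64.2 CPM in polyA+ libraries, a log2 fold change of -5.98 (SE 0.39). For all 3 of these every polyA+ library was above every rRNA− library. Their partners differed far less, with log2 fold changes of -0.70 for Nap1, -1.27 for RpS9 and -1.33 for dUTPase.

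**Figure D2:**
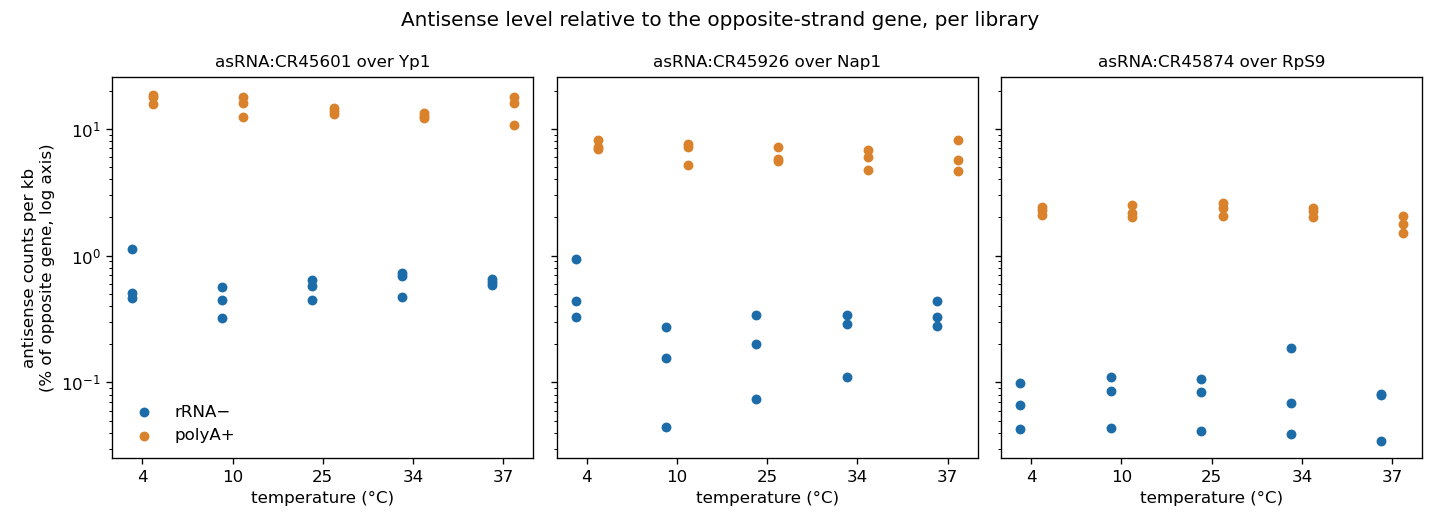
Counts per kb of exon over asRNA:CR45601, asRNA:CR45926 and asRNA:CR45874, as a percentage of those over Yp1, Nap1 and RpS9, in each library (log axis) by temperature. Points are single libraries, with rRNA− left of polyA+ at each temperature. In every panel all polyA+ points lie above all rRNA− points at every temperature; for Yp1 the percentages span 0.324% to 1.12% in rRNA− and 10.8% to 18.7% in polyA+ libraries.

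Among the genes whose 15 pools all lay on the polyA+ side, 5 had the most negative fold changes. asRNA:CR44850, opposite l(2)34Fc, had 1 count over all rRNA− libraries and 378 over all polyA+ libraries, a CPM ratio of polyA+ over rRNA− of 371 (95% exact interval 66.3 to 14709, counting error only). Of its polyA+ counts, 61, 47, 40, 64 and 68 came from the 5 libraries of low histone share. asRNA:CR46262, opposite CG3625, had 1 against 396 counts, but its 396 equalized polyA+ counts exceed the 285 in the full counts, where its median was 0.924 CPM in polyA+ libraries and its log2 fold change -6.03, against -7.18 in the equalized counts. asRNA:CR44201, opposite Glo1 (glyoxalase 1, which clears methylglyoxal), had 2 against 240. asRNA:CR45952, opposite CG11309, had a lowest, median and highest value of 0, 0 and 0.547 CPM in rRNA− and 3.07, 4.06 and 10.8 CPM in polyA+ libraries, and asRNA:CR44266, opposite CG11699, had 0, 0 and 0.496 CPM against 4.89, 7.54 and 11.0 CPM. These 5 were below the lowest polyA+ library in every rRNA− library. One measured gene, asRNA:CR44872, had no count in any rRNA− library and 153 in polyA+ libraries, which is at least 50.1-fold lower in rRNA− when 3 counts over the group are taken as the limit of detection; it was singled out after its values were seen. With that gene at its bound the median log2 fold change of the 124 remained -2.64.

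The 8 genes higher in rRNA− libraries included 3 for which all 15 pools were on that side. asRNA:CR46354, opposite side-IV (a cell surface protein of the immunoglobulin superfamily), had a lowest, median and highest value of 1.34, 3.28 and 8.19 CPM in rRNA− and 0, 0.315 and 1.37 CPM in polyA+ libraries, a log2 fold change of 2.7 (SE 0.38, edgeR adjusted p = 1.04e-06). asRNA:CR45481, opposite CG6414, had 2.43, 4.21 and 6.59 CPM in rRNA− and 0.212, 0.973 and 1.5 CPM in polyA+ libraries, a log2 fold change of 1.89 (SE 0.20). asRNA:CR46194, opposite SmD3 (a core protein of spliceosomal snRNPs), had 14.5, 27.5 and 44.7 CPM in rRNA− and 2.12, 6.08 and 15.2 CPM in polyA+ libraries, a log2 fold change of 1.71 (SE 0.19). For asRNA:CR45481 the types did not overlap, and for the other 2 the highest polyA+ library was above the lowest rRNA− library. Exons of asRNA:CR46194 share bases on their own strand with Oda, which encodes antizyme, and with mir-281-1 and mir-281-2, and those of asRNA:CR46354 with asRNA:CR17025, so the source of these reads is uncertain. The remaining 5, named after their values were seen, were asRNA:CR44029 (log2 fold change 1.45), asRNA:CR45807 (1.29), asRNA:CR44894 (1.29), asRNA:CR44192 (1.10) and asRNA:CR45046 (1.01), of which the last 3 also share exon bases with a gene of their own strand. Such sharing was present in 12 of the tested genes, of which 5 preferred rRNA− and 6 preferred polyA+ libraries past both limits.

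The extent to which an antisense RNA gene lies opposite exons moved with its library preference. Where under 25% of its exon bases were opposite an exon of any gene, 2 of 8 tested were lower and 2 higher in rRNA− libraries, with a median log2 fold change of 0.22. From 25% to 50%, 7 of 12 were lower and 1 higher, with a median of -1.39. From 50% to 75%, 24 of 34 were lower and 3 higher, with a median of -2.41. From 75% to 100%, 63 of 70 were lower and 2 higher, with a median of -3.73. Of all 10103 genes in the same fit 17.2% were lower and 26.5% higher, with a median of -0.03. Across the 124 genes, which share libraries and are not independent, Pearson's r was -0.41 and Spearman's rho -0.35. The kits were stranded, but whether the counting used strand is not given in the sources used here, and if it did not, reads of an antisense gene and its partner cannot be told apart. Its part in the preference was not tested.

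**Figure D3:**
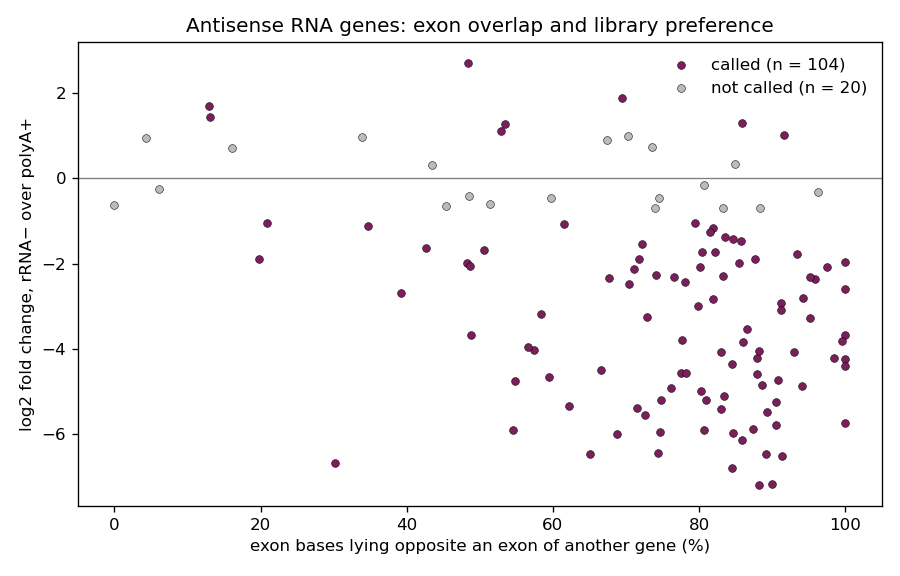
Log2 fold change of rRNA− over polyA+ libraries against the percentage of exon bases lying opposite an exon of another gene, for 124 measured antisense RNA genes. Purple points were called in either direction and grey points were not. Points at 75% to 100% overlap have a median of -3.73, against 0.22 for those under 25%.

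Set against the partner, antisense levels were mostly low in both library types and mostly lower in rRNA−. In 117 pairs the partner held at least 500 counts in each type. Counts per kb over the antisense gene were a median 1.34% of those over the partner in rRNA− libraries (quartiles 0.443% and 4.22%) and 8.67% in polyA+ libraries (quartiles 5.65% and 19.2%). From pooled counts the percentage ranged from 0% to 67.7% in rRNA− and from 0.932% to 562% in polyA+ libraries. This percentage was higher in polyA+ libraries in all 15 pools for 77 pairs and higher in rRNA− libraries in all 15 pools for 2 pairs, and from pooled counts it was higher in polyA+ for 110 and in rRNA− for 7. asRNA:CR46194 and SmD3 gave one of the 2 exceptions, at 8.20% to 32.5% in rRNA− and 1.41% to 9.14% in polyA+ libraries. In polyA+ libraries a partner with more counts per kb tended to have an antisense gene with more, with Pearson's r of 0.66 on log10 values and Spearman's rho of 0.57 over 117 pairs. In rRNA− libraries these were 0.12 and -0.09. Both are descriptions across genes, with 0.5 counts added to the antisense gene, over pairs chosen by their counts in these same libraries.

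Of the antisense genes lower in rRNA− libraries, 93 had a tested partner, which was called lower for 27, called higher for 9 and not called for 57. Of all 130 tested partners 26.2% were called lower and 19.2% higher, and of all 10103 genes 17.2% and 26.5%. By sign alone, called or not, the log2 fold change of the partner was negative for 68 of these 93 and positive for 25. It was positive for 48 of all 130 tested partners and for 4984 of all 10103 genes. Of those higher in rRNA− libraries, 6 had a tested partner, which was higher for 3, not called for 3 and lower for 0. The partners called higher included side-IV, with a log2 fold change of 1.94, and unc-13, a factor that primes synaptic vesicles, with 1.91.

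The second set of comparisons was between each temperature and 25°C within a library type, in edgeR fits of 15 libraries. Here 35 of the 139 passed the filter in rRNA− and 112 in polyA+ libraries, and the others were not tested. In rRNA− libraries, 0, 1, 3 and 6 of the 35 were called at 4, 10, 34 and 37°C, where 0.0103%, 2.11%, 0.823% and 2.55% of all 9718 genes were called. The call at 10°C was lower, against a background of 0.875% higher and 1.23% lower, and of those at 34°C 2 were higher and 1 lower, against 0.679% higher and 0.144% lower. In polyA+ libraries, 0, 0, 0 and 2 of the 112 were called at 4, 10, 34 and 37°C, where 0%, 0%, 0.0864% and 3.92% of all 9257 genes were called. Where edgeR called none, an unadjusted p under 0.05 was seen for 3 at 4°C in rRNA− libraries and for 1, 6 and 8 at 4, 10 and 34°C in polyA+ libraries. Over all genes such a p was seen for 400 of 9718 in the first and for 58, 584 and 665 of 9257 in the others. DESeq2 called 0 of the measured genes in the first and 0, 0 and 1 in the others. Of all genes DESeq2 called 0.0899% in the first and 0.0449%, 0.438% and 0.747% in the others. At 37°C in rRNA− libraries 4 were higher and 2 lower, against 2.06% higher and 0.494% lower of all genes, around a median log2 fold change of -0.05, which was also that of all genes. At 37°C in polyA+ libraries both calls were higher, against 3.76% higher and 0.162% lower of all genes, and the median log2 fold change was 0.01, against -0.18 for all genes. In one fit of all 30 libraries, the rRNA− calls of asRNA:CR43481 and asRNA:CR44321 at 34°C, asRNA:CR45807 and asRNA:CR45185 at 37°C and asRNA:CR44029 at 10°C were lost, with edgeR adjusted p-values of 0.185 to 0.961. Of the partners tested, 2 of 130 in rRNA− and 9 of 128 in polyA+ libraries were called at 37°C.

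asRNA:CR43481 rose with heat in both library types together with its partner. It lies on 3L (dm6, 9378160 to 9381119, plus strand), with 45.4% of its exon bases opposite Hsp67Ba, a small heat shock protein gene of the 67B cluster. At 37°C it had 39.4, 40.1 and 44.9 CPM in rRNA− libraries, against 3.29, 4.29 and 5.45 CPM at 25°C. In polyA+ libraries it had 32.5, 59.9 and 38.4 CPM at 37°C, against 5.45, 4.63 and 6.11 CPM at 25°C. The temperatures did not overlap in either type, and the log2 fold change was 3.39 (SE 0.35, edgeR adjusted p = 2.41e-05) in rRNA− and 3.31 (SE 0.49, edgeR adjusted p = 0.00515) in polyA+ libraries. Hsp67Ba had 70.6, 55.9 and 68.0 CPM at 37°C, against 4.94, 4.90 and 4.71 CPM at 25°C in rRNA− libraries, and 82.8, 68.3 and 41.1 CPM against 2.10, 2.01 and 1.71 CPM in polyA+ libraries. Its log2 fold changes were 3.87 (SE 0.36, edgeR adjusted p = 7.12e-06) and 5.36 (SE 0.60, edgeR adjusted p = 0.00045). The response of asRNA:CR43481 differed between types by 0.03 on the log2 scale at 37°C (rRNA− minus polyA+, SE 0.51, edgeR adjusted p = 0.998). The polyA+ call was lost without 25°C replicate 2 (adjusted p = 0.0639) and without the 5 libraries of low histone share (log2 fold change 3.08, adjusted p = 0.575).

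At 34°C asRNA:CR43481 had 12.6, 12.6 and 13.0 CPM in rRNA− and 8.57, 17.2 and 22.2 CPM in polyA+ libraries, all above 25°C. The log2 fold change was 1.67 in both types, called in rRNA− (SE 0.34, edgeR adjusted p = 0.0265) but not in polyA+ libraries (SE 0.47, adjusted p = 0.352). The rRNA− call was lost when any of the 3 libraries at 25°C or replicates 2 or 3 at 34°C were left out, with adjusted p-values of 0.0579 to 0.113. In the cold it had 2.75, 1.75 and 5.81 CPM at 4°C and 2.12, 1.05 and 2.90 CPM at 10°C in rRNA− libraries and passed no test. It preferred neither library type past the threshold, at a log2 fold change of -0.66.

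asRNA:CR44321 lies on 3R (dm6, 26260902 to 26261515, plus strand), with 61.5% of its exon bases opposite Ald1, the gene of the glycolytic enzyme aldolase. In rRNA− libraries it had 8.03, 7.29 and 8.42 CPM at 37°C and 4.38, 3.79 and 5.59 CPM at 34°C, against 1.44, 0.817 and 0.496 CPM at 25°C. Both heat groups were above 25°C with no overlap, with log2 fold changes of 3.18 at 37°C (SE 0.53, edgeR adjusted p = 0.00276) and 2.37 at 34°C (SE 0.54, edgeR adjusted p = 0.0456). The call at 34°C was lost without 25°C replicates 2 or 3 or any one of the libraries at 34°C, with adjusted p-values of 0.0529 to 0.211, with the replicate number as a block (adjusted p = 0.0574), with library totals only (adjusted p = 0.0520) and in the full counts (adjusted p = 0.0501). Ald1 was at 1629, 1574 and 1510 CPM at 37°C, against 1865, 1340 and 1290 CPM at 25°C, and overlapped (log2 fold change 0.21, adjusted p = 0.608). In polyA+ libraries asRNA:CR44321 had 10.2, 11.5 and 7.30 CPM at 37°C, against 1.68, 4.43 and 1.22 CPM at 25°C, a log2 fold change of 2.34 that missed the threshold (SE 0.64, edgeR adjusted p = 0.0561).

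asRNA:CR45831 lies on 3L (dm6, 5767321 to 5768704, plus strand) with 95.2% of its exon bases opposite Ppat-Dpck, which encodes an enzyme of coenzyme A synthesis. It had 3.90, 3.16 and 4.68 CPM at 37°C, against 0.412, 0.408 and 0.248 CPM at 25°C in rRNA− libraries, a log2 fold change of 3.46 (SE 0.62, edgeR adjusted p = 0.00468) that rests on 1 or 2 counts per library at 25°C. Ppat-Dpck was at 52.5, 54.5 and 63.1 CPM against 63.0, 55.3 and 57.8 CPM, with overlap and a log2 fold change of 0.09. In polyA+ libraries asRNA:CR45831 had 10.8, 7.98 and 15.1 CPM at 37°C, against 3.98, 2.01 and 5.13 CPM at 25°C, a log2 fold change of 1.89 that missed the threshold (SE 0.60, edgeR adjusted p = 0.0782).

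asRNA:CR45807 lies on 3L (dm6, 599399 to 600914, plus strand) with 85.9% of its exon bases opposite CG13893. In rRNA− libraries it had 5.27, 5.83 and 11.5 CPM at 37°C, against 1.65, 2.65 and 1.49 CPM at 25°C. There was no overlap, and the log2 fold change was 2.08 (SE 0.45, edgeR adjusted p = 0.0147), but the call was lost without 25°C replicate 3 (adjusted p = 0.0856) or 37°C replicate 3 (adjusted p = 0.0965). CG13893 had 34.9, 30.4 and 31.6 CPM against 24.3, 14.7 and 15.9 CPM, a log2 fold change of 0.96 (SE 0.21, edgeR adjusted p = 0.0169) just short of the fold change required. asRNA:CR45807 was too low for the polyA+ fit, with 1.91, 2.25 and 0.730 CPM at 37°C, against 0.838, 0.402 and 0.489 CPM at 25°C.

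asRNA:CR44035 fell with heat. It lies on 3R (dm6, 9810020 to 9813929, minus strand) with 43.5% of its exon bases opposite CG8534. In rRNA− libraries it had 1.37, 1.08 and 0.895 CPM at 34°C and 0.688, 1.22 and 1.64 CPM at 37°C, against 5.76, 6.94 and 9.67 CPM at 25°C. Both heat groups lay below every library at 25°C, with log2 fold changes of -2.60 at 34°C (SE 0.37, edgeR adjusted p = 0.00133) and -2.49 at 37°C (SE 0.36, edgeR adjusted p = 0.000917). In polyA+ libraries it had 0.803, 0.844 and 1.5 CPM at 34°C and 0.637, 0.998 and 0.243 CPM at 37°C, against 4.82, 4.02 and 4.4 CPM at 25°C. These groups did not overlap either, but log2 fold changes of -1.91 (SE 0.63, adjusted p = 0.431) and -2.45 (SE 0.66, adjusted p = 0.0534) missed the threshold in edgeR. In the cold the rRNA− values were 5.23, 6.98 and 5.81 CPM at 4°C and 2.48, 4.22 and 3.39 CPM at 10°C, and the values at 10°C lay below those at 25°C without a call (log2 fold change -1.14, adjusted p = 0.0581). The polyA+ values were 3.43, 1.09 and 3.90 CPM at 4°C and 0.722, 2.84 and 3.20 CPM at 10°C. Both cold groups lay below every polyA+ library at 25°C, without a call, so lower values were not limited to heat. The partner CG8534 was too low to be tested, at 0 to 1.41 CPM in rRNA− and 0 to 3.47 CPM in polyA+ libraries.

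asRNA:CR45185 fell at 37°C in rRNA− libraries. It lies on X (dm6, 10044909 to 10048156, minus strand) within the span of Cht6, a chitinase gene, with 16% of its exon bases opposite Cht6 exons. In rRNA− libraries it had 0.688, 0.486 and 0.468 CPM at 37°C, against 2.68, 3.27 and 3.47 CPM at 25°C, with no overlap and a log2 fold change of -2.31 (SE 0.57, edgeR adjusted p = 0.0307). The call was lost without any one of the 3 libraries at 37°C or without 25°C replicates 2 or 3, with adjusted p-values of 0.0752 to 0.118. Each library at 37°C held 2 or 3 counts of it. Cht6 had 25.0, 33.3 and 29.7 CPM against 31.1, 30.2 and 27.3 CPM and overlapped (log2 fold change 0.13, adjusted p = 0.790). In polyA+ libraries asRNA:CR45185 was too low for the fit, with 1.27, 0.748 and 0.487 CPM at 37°C, against 1.68, 0.805 and 0.977 CPM at 25°C, and the groups overlapped.

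asRNA:CR44029 fell at 10°C in rRNA− libraries. It lies on chromosome 4 (dm6, 879374 to 884752, plus strand) within the span of unc-13, with 13.1% of its exon bases opposite unc-13 exons. In rRNA− libraries it had 1.77, 1.41 and 0.968 CPM at 10°C, against 6.18, 7.55 and 7.93 CPM at 25°C, with no overlap and a log2 fold change of -2.33 (SE 0.50, edgeR adjusted p = 0.0170). It was the only measured antisense RNA gene called in a cold comparison. The call was lost without 10°C replicates 1 or 3 or 25°C replicates 2 or 3, with adjusted p-values of 0.0635 to 0.0866. At 4°C it had 4.4, 1.05 and 4.23 CPM and at 37°C 2.98, 2.19 and 3.04 CPM, all below 25°C but not called. unc-13 had 46.3, 88.6 and 52.2 CPM at 10°C, against 91.2, 126 and 134 CPM at 25°C, a log2 fold change of -0.91 (adjusted p = 0.257). In polyA+ libraries asRNA:CR44029 was too low for the fit, with 0.361, 0 and 2.28 CPM at 10°C, against 2.31, 2.21 and 1.22 CPM at 25°C, and the groups overlapped, as they did at 4°C. At 37°C its polyA+ values of 0.849, 0.249 and 0.730 CPM lay below every library at 25°C, untested.

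asRNA:CR45955 was called at 37°C in polyA+ libraries. It lies on 3L (dm6, 21636643 to 21637314, minus strand) with 54.5% of its exon bases opposite CG32444. It had 22.3, 22.7 and 6.08 CPM at 37°C, against 2.51, 0.805 and 0.489 CPM at 25°C, a log2 fold change of 4.02 (SE 0.91, edgeR adjusted p = 0.0326). The 2 high values at 37°C, and 17.7 CPM in replicate 2 at 10°C, all came from libraries of low histone share. Without those libraries the log2 fold change was 2.46 (adjusted p = 0.970), and the call was also lost without 37°C replicates 1 or 2 or 25°C replicates 2 or 3 (adjusted p = 0.0940 to 0.191) and with library totals only (adjusted p = 0.0626). CG32444 had 909, 729 and 169 CPM at 37°C, against 149, 73.6 and 38.8 CPM at 25°C, a log2 fold change of 3.12 (SE 0.86, edgeR adjusted p = 0.0566), and its highest values fell in the same libraries. In rRNA− libraries asRNA:CR45955 had 0 to 2 counts per library and was not tested, while CG32444 was at 123, 131 and 126 CPM at 37°C, against 156, 101 and 65.2 CPM at 25°C.

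**Figure D4:**
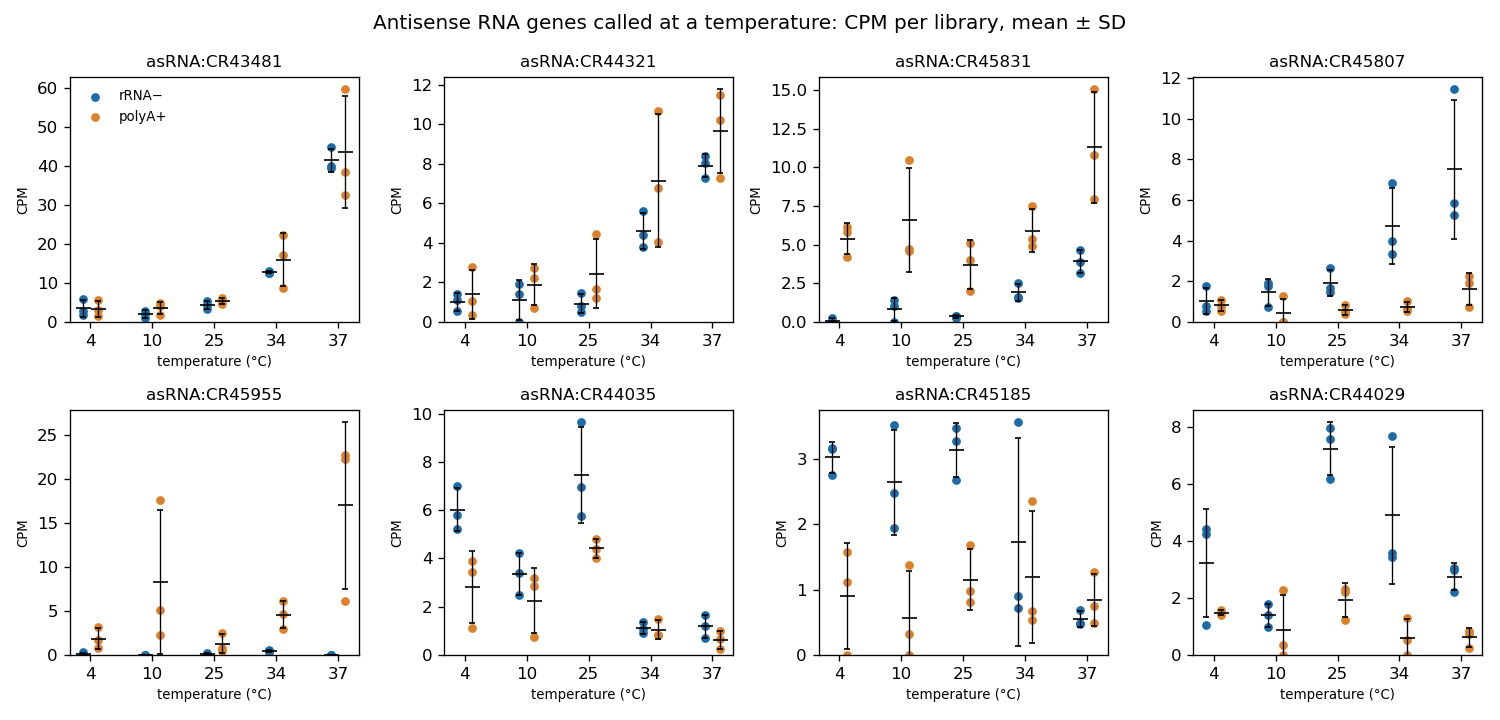
CPM of the 8 antisense RNA genes called at a temperature in either library type, by temperature in °C, with rRNA− left of polyA+. Points are single libraries, and black marks are means ± SD (n = 3). asRNA:CR43481 rises in both types, to 32.5 to 59.9 CPM at 37°C in polyA+ libraries, while asRNA:CR44035 lies below its 25°C values in both types at 34 and 37°C.

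Among the most abundant genes no temperature comparison was called. asRNA:CR45601 had 63.4 to 72.0 CPM at 37°C, against 30.1 to 45.9 CPM at 25°C in rRNA− libraries, a log2 fold change of 0.89 (SE 0.29, edgeR adjusted p = 0.103) that missed the threshold though the temperatures did not overlap, beside 0.73 for Yp1 (SE 0.15, edgeR adjusted p = 0.0129). In polyA+ libraries it spanned 241 to 1015 CPM at 37°C, against 245 to 422 CPM at 25°C, with overlap. At 4°C it spanned 494 to 666 CPM and at 10°C 537 to 705 CPM in polyA+ libraries, both above every library at 25°C, with log2 fold changes of 0.78 (SE 0.47) and 1.08 (SE 0.47) and edgeR adjusted p-values of 1 and 0.759. Yp1 in polyA+ libraries was likewise above 25°C without overlap at 4 and 10°C. asRNA:CR45926 had log2 fold changes from 25°C of -0.40 to 1.54 in rRNA− and of -0.06 to 0.41 in polyA+ libraries. The share of all counts held by the measured genes other than asRNA:CR45601 was, at 4, 10, 25, 34 and 37°C, 0.0256%, 0.0218%, 0.0266%, 0.0243% and 0.0298% in rRNA− libraries, and 0.0963%, 0.0851%, 0.0827%, 0.0733% and 0.0856% in polyA+ libraries.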

How the data were processed

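The authors deposited whole-number read counts per gene for 30 libraries of Drosophila melanogaster, from reads aligned to dm6. The submitters' processing notes name STAR 2.7.7a, Salmon 1.4.0, SAMtools, R 4.2.2 and DESeq2, and whether the counts come from STAR or Salmon, and use strand, is not given in the sources used here. Before equalized counting, rRNA reads had been discarded by the authors, and polyA+ reads had been cut to the rRNA− read length and sampled at the depth of the pool's rRNA− library. The full counts, deposited without equalizing, served as an alternative. No column was without a sample.

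Members, partners and lists were chosen with earlier results of these data known. Partners and exon lengths came from the Ensembl annotation of the same assembly. Counts were tested with edgeR 4.0.16 in R 4.3.3 (TMM, filterByExpr, robust quasi-likelihood fits), in 15 libraries of a type against 25°C or in 10 groups of 30 libraries. Calls required a Benjamini-Hochberg adjusted p below 0.05 over all genes tested and, except for interactions, an absolute log2 fold change of 1 or more. CPM were scaled to the equalized total without TMM, and standard errors were approximated as the log2 fold change over the square root of F. The procedure was tested on simulated data. Replicates were separate pools of flies per the labels, and p-values measure the spread between pools. Intervals cover counting error only.

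Genes were named by rule: members called at a temperature or in an interaction; of those called between types with all 15 pools on one side, up to 5 at each end; asRNA:CR44035; the 5 of highest sum; and asRNA:CR45601. asRNA:CR44035 was chosen because the study names it. The study, which used DESeq2, lists it as significantly lower with heat in both library types. Here its polyA+ changes missed the threshold in edgeR. Alternatives were DESeq2 1.42.0, its size factors, library totals only, no filter, the full counts, other sets of libraries, a replicate block and each replicate left out. By the series' design a polyA+ and an rRNA− library of one temperature and number share a pool, and their deviations from group means correlated at -0.31 to 0.45 over 15 pools. Plots used matplotlib.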

Additional observations from a re-analysis of the deposited data

Results flagged for a closer look

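In the full counts, which the comparisons above use only as an alternative and for histone shares, 5 antisense RNA genes without any equalized count had more than 3 counts in at least 1 library, the limit that a count of 0 allows. The highest were asRNA:CR45213, with up to 65 counts in a library and sums of 3 in rRNA− and 579 in polyA+ libraries, and asRNA:CR45139, with up to 21 counts and sums of 67 and 122. The other 3 reached at most 6 counts. Why these reads have no equalized counterpart was not tested.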

How the results depend on the processing

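The number of measured antisense RNA genes lower in rRNA− libraries stayed near 96 in every alternative run, at 89 to 106, and those higher numbered 8 with 6 to 12 when one pool was left out, but 14 with library totals only, a scaling that moved the median log2 fold change of all genes to 0.33. Of all genes, 26.5% were higher and 17.2% lower in the main fit, and 33% and 7.19% with library totals. With one pool left out 25.6% to 29.2% were higher and 15.9% to 20.2% lower, and in the full counts 24.3% and 22.6%. Without the pools of low histone share (an alternative added after seeing the data) 11 were higher and 94 lower, against 29.4% higher and 16.9% lower of all genes. The count least stable was that at 37°C in polyA+ libraries, 2 by edgeR: DESeq2 called 19, DESeq2 size factors gave 7, library totals 1, the full counts 5, the 6 libraries compared alone 10, one fit of all 30 libraries 22, and the libraries without low histone share 0. The share of all genes called moved with these counts: 3.92% by edgeR, 8.96% by DESeq2, 7.64% with its size factors, 0.972% with library totals, 5.27% in the full counts, 16.6% in the 6 libraries, 24.6% in the fit of 30 and 0.0742% without low histone share. Leaving out single libraries gave 0 to 13, with 13 without 37°C replicate 3, 0 without 25°C replicate 2 and 1 without 25°C replicate 3 or 37°C replicates 1 or 2. Of all genes these runs called, in the same order, 19.4%, 0.201%, 0.222%, 0.34% and 0.508%. At 34°C in polyA+ libraries DESeq2 called 1 and one fit of all 30 libraries 2, against 0, where 0.747%, 1.54% and 0.0864% of all genes were called. In rRNA− libraries one fit of all 30 gave 0 at 10°C and 1 at 34°C, against 1 and 3, and leaving out single libraries gave 0 to 2 and 1 to 3, with 2 at 10°C without 25°C replicate 1. Of all genes the fit of 30 called 0.0099% and 0.228%, against 2.11% and 0.823%. Leaving out single libraries gave 0.0101% to 3.79% at 10°C, the highest without 25°C replicate 1, and 0.335% to 1.19% at 34°C. The interaction at 37°C gave 0 to 1, with 1 without 37°C replicate 3, where 5.27% of all genes were called. Library totals moved the median log2 fold change of all genes to -0.50 at 37°C in polyA+ libraries, -0.16 at 34°C in polyA+ libraries, and -0.17 and -0.19 at 34 and 37°C in rRNA− libraries. The cause of these differences was not tested.

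With the replicate block, where pools pair library types, 12 genes were higher and 95 lower in rRNA− libraries, against 28.7% higher and 15.1% lower of all genes. Interactions stayed at 0, as for all genes. Within a type the numbers are shared across temperatures by name only: the block gave 0, 0, 0 and 2 calls at 4, 10, 34 and 37°C in polyA+ and 0, 1, 2 and 6 in rRNA− libraries, with same-numbered deviations correlated at -0.42 to 0.40. Of all genes the block called 0%, 0%, 0.0864% and 2.41% in polyA+ and 0%, 2.15%, 0.926% and 2.9% in rRNA− libraries. Over 24 results of named genes and 434 alternatives, 397 kept their direction and their side of the threshold, 37 kept the direction but missed it and 0 reversed; 17 results passed in every alternative. In rRNA− libraries 35 of 139 genes passed the filter, and 40 in the full counts; the others were not tested there.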

Other observations

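Some of the measured antisense RNA genes lie opposite well-known regulators, which were singled out after their values were seen. asRNA:CR42254, opposite BEAF-32, and asRNA:CR45822, opposite CTCF, both insulator protein genes, were lower in rRNA− libraries by edgeR with log2 fold changes of -1.13 (SE 0.17) and -1.05 (SE 0.15). asRNA:CR44020, opposite osk, the gene that organizes germ plasm in the oocyte, had a log2 fold change of -1.89 (SE 0.29), with 19.8% of its exon bases opposite an exon. asRNA:CR44599, opposite loqs, which encodes a partner of Dicer, had -1.54 (SE 0.20). asRNA:bsAS, which has bs, the fly serum response factor gene, as partner and 0% of its exon bases opposite bs exons, was not called, at a log2 fold change of -0.63 (SE 0.21).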
